A study of Sus scrofa with 9 samples.

Results

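Immediate early genes are switched on within minutes of a growth, stretch or stress signal, without new protein synthesis, by transcription factors that MAP kinases and calcium signals activate. FOS and JUN proteins pair as the transcription factor AP-1, MYC pairs with MAX at genes of growth and metabolism, and several of the other products brake the response by dephosphorylating kinases or by speeding the decay of mRNA. In heart muscle these genes are known for their quick answer to stretch, ischemia and reperfusion. The 9 genes described here are FOS, JUN, MYC, BTG2, DUSP1, IER5, ZFP36, GADD45G and RHOB. They were chosen by gene symbol among 3952 genes in the table of nascent transcription, with earlier results of these data known. For each gene the listed position with the longest span was used.

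The tissue came from female farm pigs whose distal left anterior descending coronary artery had been closed by a coil 24 hours earlier. The groups were ischemic myocardium, border zone myocardium and healthy myocardium of the same 3 pigs, with 3 libraries in each group, and replicate numbers 1 to 3 are the pigs. All 3 groups thus come from infarcted hearts, and no heart without an occlusion and no other time was analysed here. All tissue was minced, digested warm with collagenase and filtered before nuclei were isolated, so that every library also shares that step. Whether that step changed the levels of these genes, or did so equally in all zones, was not tested. GRO-seq lets engaged RNA polymerases extend their transcripts with a labelled nucleotide in isolated nuclei, which are then captured and sequenced, so it reads ongoing transcription and not the mRNA pool. Levels are RPKM, reads per kilobase of the annotated span with its introns and corrected for the number of reads in the library.

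Of 4882 listed positions 2384 averaged 0.5 RPKM or more across the libraries and were tested, and these included all 9 genes. Library totals were 883656 to 2134087 reads in ischemic, 2187977 to 7005976 in border zone and 2730083 to 6531658 in healthy libraries. The summed level of 11 heart muscle cell markers was 77.3 to 229 RPKM in ischemic, 166 to 283 in border zone and 347 to 618 in healthy libraries, with CKM, the muscle creatine kinase, listed at 0 in every library. In all, 1027 of the 4882 positions had no read in any library. The median position was 0.21 higher in ischemic and 0.22 higher in border zone than in healthy libraries on the log2 scale, and changes of single genes should be read against that shift.

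FOS showed the widest separation from healthy myocardium. FOS encodes an AP-1 subunit that cannot form a stable dimer with itself and relies on JUN proteins (NM_001123113, susScr3 chromosome 7 from 104293828 to 104296291, plus strand, a span of 2463 bp of which 46.2% is exon). It stood at 75.0, 39.9 and 71.2 RPKM in ischemic replicates 1 to 3, 74.1, 32.3 and 49.9 RPKM in border zone replicates 1 to 3, and 7.29, 7.58 and 6.53 RPKM in healthy replicates 1 to 3. Every ischemic and every border zone library lay above every healthy library, and the ischemic and border zone ranges overlapped almost wholly. The mean was 62.0 ± 19.3 RPKM in ischemic, 52.1 ± 21.0 in border zone and 7.13 ± 0.545 in healthy myocardium (SD, n = 3 each). FOS rose in ischemic myocardium with a log2 fold change of 3.05 ± 0.37 (± SE, limma adjusted p = 0.00141), with a 95% interval of 4.62-fold to 14.9-fold. It rose in border zone myocardium as well, by 2.77 ± 0.37 (6.84-fold, adjusted p = 0.00478). Ischemic against border zone the log2 fold change was 0.28 ± 0.37 (adjusted p = 0.760), with a 95% interval of 0.675-fold to 2.17-fold. The healthy mean lay above 92.2% of tested positions and the ischemic mean above 99.2%. These ranks compare spans of unlike length, since FOS spans 2463 bp and the median tested position 11456 bp. These values rest on 661 ischemic, 1475 border zone and 218 healthy reads.

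JUN, the usual partner of FOS, showed no such rise (NM_213880, chromosome 6 from 141231122 to 141232332, plus strand). JUN stood at 51.1, 29.0 and 24.3 RPKM in ischemic, 24.9, 22.3 and 28.0 RPKM in border zone and 32.4, 27.0 and 28.7 RPKM in healthy replicates 1 to 3. The healthy values lay inside the ischemic range, and ischemic replicate 1 alone stood above all other libraries. The log2 fold change was 0.17 ± 0.30 for ischemic against healthy (adjusted p = 0.704), with a 95% interval of 0.695-fold to 1.83-fold, and -0.23 ± 0.30 for border zone against healthy (adjusted p = 0.726). The first of these was -0.14 without ischemic replicate 1 and -0.04 with median scaling, which sets the medians of the libraries equal. In healthy myocardium JUN had the higher level of the pair per length of gene, and in ischemic and border zone myocardium FOS had. The ratio of FOS to JUN RPKM, which does not depend on library scaling, was 1.47, 1.38 and 2.93 in ischemic, 2.98, 1.45 and 1.79 in border zone and 0.225, 0.281 and 0.227 in healthy replicates 1 to 3. It was 7.44-fold higher in ischemic and 8.13-fold higher in border zone than in healthy myocardium by geometric means. Each of these had p = 0.10 by an exact 2-sided permutation test, the smallest that 3 against 3 libraries allow.

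**Figure D1:**
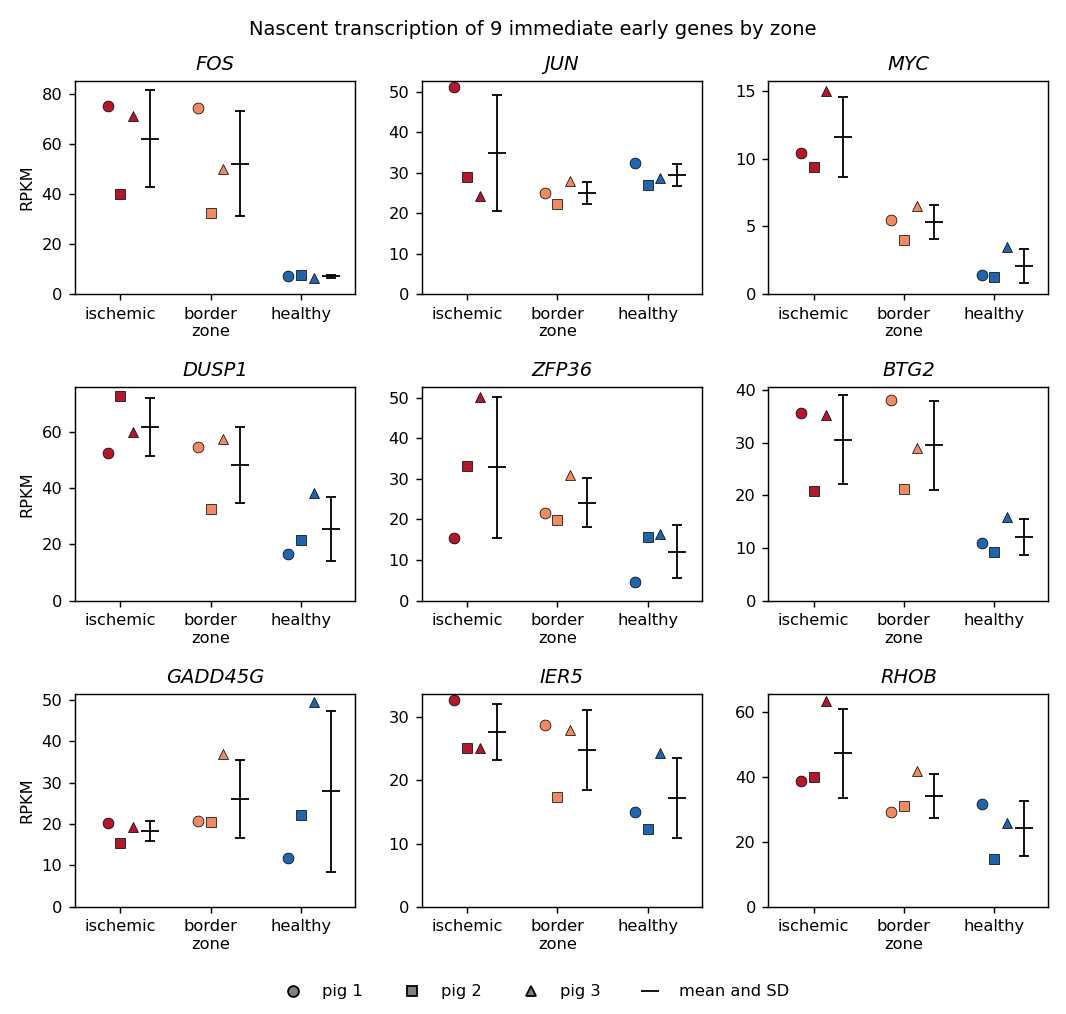
RPKM of each of the 9 genes (y axis, linear, from 0) in ischemic, border zone and healthy libraries (x axis). Symbols mark the pig and the black marks give the mean and SD of 3 libraries. FOS lies at 39.9 to 75.0 RPKM in ischemic libraries against 6.53 to 7.58 RPKM in healthy libraries, MYC descends by zone, and JUN and GADD45G show no such order.

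MYC, a basic helix-loop-helix leucine zipper factor, was the gene whose 3 zones followed each other without overlap (NM_001005154, chromosome 4 from 12778452 to 12783667, minus strand). It stood at 10.4, 9.41 and 15.0 RPKM in ischemic, 5.45, 4.02 and 6.49 RPKM in border zone and 1.40, 1.29 and 3.52 RPKM in healthy replicates 1 to 3. In each of the 3 pigs the ischemic sample was the highest and the healthy sample the lowest. MYC rose in ischemic myocardium, with a log2 fold change of 2.55 ± 0.40 against healthy (5.84-fold, adjusted p = 0.00341). Border zone against healthy gave 1.44 ± 0.40 (adjusted p = 0.0809), which met the threshold once pig entered as a block (adjusted p = 0.0207), without healthy replicate 3 (adjusted p = 0.0281) and by limma-voom on reads (adjusted p = 0.0469). Ischemic against border zone gave 1.11 ± 0.40 (adjusted p = 0.238, and 0.0987 with pig as a block), so neighbouring zones were not told apart in the main test. The healthy values are the least certain, with 20, 23 and 120 reads in replicates 1 to 3.

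DUSP1 encodes a phosphatase that removes activating phosphates from p38, JNK and ERK kinases, a feedback on the signal that induces it (NM_001256075, chromosome 16 from 55768679 to 55770832, plus strand). It stood at 52.5, 72.9 and 59.9 RPKM in ischemic, 54.7, 32.6 and 57.3 RPKM in border zone and 16.7, 21.4 and 38.4 RPKM in healthy replicates 1 to 3. All ischemic values lay above the healthy ones, and border zone replicate 2 lay within the healthy range. DUSP1 rose 2.55-fold in ischemic myocardium (log2 fold change 1.35 ± 0.37, adjusted p = 0.0301). That call depended on 5 single libraries. The adjusted p was 0.0573, 0.0662 and 0.0692 when ischemic replicate 1, 2 or 3 was left out, and 0.0796 and 0.0902 when healthy replicate 1 or 2 was. It was also lost with median scaling (adjusted p = 0.0711), quantile normalization (0.234) and a fit on these groups alone (0.0552). Border zone against healthy gave 0.96 ± 0.37 (adjusted p = 0.189).

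ZFP36, tristetraprolin, binds AU-rich elements in cytokine mRNAs and hastens their decay. It stood at 15.4, 33.3 and 50.2 RPKM in ischemic, 21.5, 19.9 and 31.0 RPKM in border zone and 4.54, 15.6 and 16.3 RPKM in healthy replicates 1 to 3. Pig 1 was the lowest of its group in ischemic and healthy myocardium, and its ischemic value fell just below the healthy values of the other pigs. Within each pig the ischemic sample was the higher, by 1.74, 1.09 and 1.62 on the log2 scale. The log2 fold change of 1.48 ± 0.59 did not pass without pairing (adjusted p = 0.0932), and did when blocked by pig (1.48 ± 0.37, adjusted p = 0.0285). Border zone against healthy gave 1.16 ± 0.59 (adjusted p = 0.301). ZFP36 is uncertain for a further reason. The same accession is listed at positions of equal span on chromosome 14 from 143677781 to 143680284, used here, and on chromosome 6 from 43893800 to 43896303, and the labels and the table do not say how reads that match both were assigned. The chromosome 6 position had 33.7 ± 14.9 RPKM in ischemic, 26.0 ± 6.27 in border zone and 12.1 ± 6.15 in healthy myocardium, and gave 1.54 ± 0.52 for ischemic against healthy (adjusted p = 0.0570, and 0.0242 with pig as a block).

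BTG2 and GADD45G both belong to growth arrest, and their values differed in pattern. BTG2 restrains proliferation and recruits the CCR4-NOT deadenylase to mRNAs (NM_001097505, chromosome 9 from 70327454 to 70331400, plus strand). It stood at 35.6, 20.9 and 35.3 RPKM in ischemic, 38.2, 21.3 and 29.0 RPKM in border zone and 11.0, 9.17 and 15.8 RPKM in healthy replicates 1 to 3. Ischemic and border zone libraries lay wholly above healthy ones and overlapped each other, and in both zones pig 2 was the lowest. BTG2 rose 2.53-fold in ischemic myocardium (log2 fold change 1.34 ± 0.35, adjusted p = 0.0241). The call was lost without ischemic replicate 1 (adjusted p = 0.0744) or 3 (0.0705), without healthy replicate 1 (0.0579) or 2 (0.0823), and with quantile normalization (0.173). Border zone against healthy gave 1.28 ± 0.35 (adjusted p = 0.0708), and the call was gained with a pig block (adjusted p = 0.0264) and by limma-voom on reads (0.0103). Ischemic against border zone the 95% interval was 0.599-fold to 1.79-fold.

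GADD45G encodes a stress protein that binds and activates a kinase upstream of p38 and JNK (NM_001185129, chromosome 14 from 1421152 to 1422685, plus strand). It stood at 20.2, 15.4 and 19.2 RPKM in ischemic, 20.8, 20.6 and 37.0 RPKM in border zone and 11.9, 22.1 and 49.5 RPKM in healthy replicates 1 to 3. The healthy values ran from the lowest to the highest of all 9 libraries and enclosed both other groups. The ischemic values were tight and lay just below the border zone values. No comparison passed, with log2 fold changes of -0.38 ± 0.50 for ischemic against healthy (adjusted p = 0.611), 0.09 ± 0.50 for border zone against healthy (adjusted p = 0.951) and -0.47 ± 0.50 for ischemic against border zone (adjusted p = 0.691). Ischemic against healthy was 0.16 without healthy replicate 3, so even its sign rests on 1 library. Within pigs the ischemic to healthy difference was 0.75, -0.51 and -1.36 on the log2 scale in pigs 1 to 3.

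IER5 and RHOB leaned toward higher values in ischemic myocardium without passing. IER5 encodes a nuclear protein that promotes activity of the heat shock factor HSF1 (NM_001258436, chromosome 9 from 134670062 to 134672230, plus strand). It stood at 32.6, 25.1 and 25.1 RPKM in ischemic, 28.8, 17.4 and 28.0 RPKM in border zone and 15.0, 12.3 and 24.3 RPKM in healthy replicates 1 to 3. The lowest ischemic values exceeded the highest healthy value by a small margin, and in pig 3 the ischemic and healthy samples were 0.04 apart on the log2 scale. The log2 fold change was 0.73 ± 0.33 for ischemic against healthy (adjusted p = 0.137) and 0.55 ± 0.33 for border zone against healthy (adjusted p = 0.391). Ischemic against healthy, IER5 was at 0.52 with median scaling (adjusted p = 0.266) and 0.07 with quantile normalization (adjusted p = 0.907).

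RHOB encodes a small GTPase of endosomes and the actin cytoskeleton that, unlike its relatives RHOA and RHOC, is itself stress induced (NM_001123189, chromosome 3 from 125747271 to 125747861, minus strand). It stood at 38.9, 40.1 and 63.3 RPKM in ischemic, 29.1, 31.2 and 41.8 RPKM in border zone and 31.7, 14.8 and 25.9 RPKM in healthy replicates 1 to 3. The ischemic libraries lay above all healthy ones, and the border zone overlapped both. The log2 fold change of 1.00 ± 0.35 for ischemic against healthy missed the threshold (adjusted p = 0.0658) and met it in the fit blocked by pig (adjusted p = 0.0468). It fell to 0.79 with median scaling (adjusted p = 0.155) and 0.36 with quantile normalization (adjusted p = 0.435). Without healthy replicate 2 it was 0.69 (adjusted p = 0.193). The listed span of RHOB, 590 bp, is the shortest of the 9, and the value in ischemic replicate 2 rests on 27 reads.

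**Figure D2:**
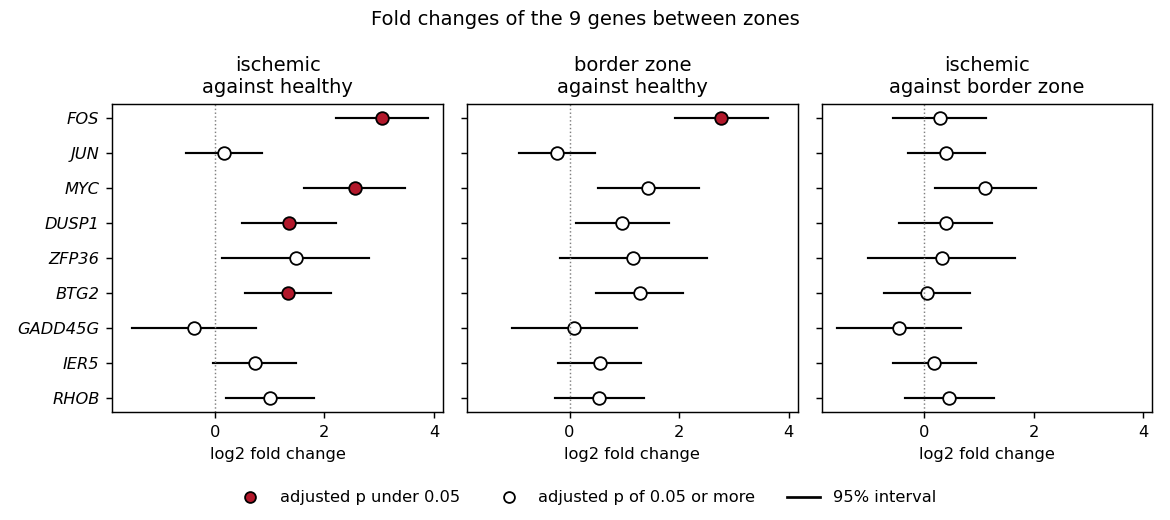
Log2 fold change (x axis) of each gene (rows) in the 3 comparisons, with 95% intervals from limma. Filled points passed an adjusted p of 0.05. FOS passed in ischemic and in border zone against healthy at 3.05 and 2.77, MYC, DUSP1 and BTG2 passed only in the panel of ischemic against healthy, and no gene passed in ischemic against border zone.

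Counted together, 4 of the 9 genes rose in ischemic against healthy myocardium (FOS, MYC, DUSP1 and BTG2) and 0 fell, while 18.5% of all tested positions rose and 9.10% fell. With median scaling the series had 337 positions higher and 295 lower, and with quantile normalization 249 and 251, against 442 and 217 as deposited, so the share of higher calls depends on scaling. FOS and MYC kept their calls under both scalings, at 2.84 and 2.33 with median scaling and 2.49 and 2.08 with quantile normalization. With pig as a block 6 of the 9 rose, RHOB and ZFP36 in addition, where 21.3% of positions rose. In 6 of the 9 every ischemic library lay above every healthy one, as in 28.4% of positions, and in 7 the ischemic sample was higher in 3 of 3 pigs, as in 37.3% of positions. At an unadjusted p under 0.05 there were 6 of the 9 higher, against 27.1% of positions. The median log2 fold change was 1.34 for the 9 genes and 0.21 for all positions. In border zone against healthy 1 of the 9 rose, FOS, and 0 fell, where 5.79% of positions rose and 0.210% fell. At an unadjusted p under 0.05 it was 4 of the 9, all higher, against 17.8% of positions higher. With pig as a block 3 of the 9 rose in the border zone, where 8.05% of positions rose, and 4 lay wholly above healthy libraries, as did 25.7% of positions, while 6 were higher in 3 of 3 pigs, as were 37.1% of positions. The median there was 0.96 for the 9 genes and 0.22 for all positions. Both comparisons use the same healthy libraries and are not independent of each other. As the genes were chosen with earlier results known, these shares are a description and not a test. In ischemic against border zone 0 of the 9 passed by limma, by limma-voom or with pig as a block, where 0.168% of positions rose and 0.965% fell. MYC was the 1 gene at an unadjusted p under 0.05, against 6.42% of positions higher. MYC alone lay wholly above the border zone, as did 8.56% of positions, GADD45G alone lay wholly below it, as did 11.5% of positions, and FOS, MYC and RHOB were higher in 3 of 3 pigs, as were 20.7% of positions.

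The genes did not vary as a single block among the libraries. Over the 9 libraries, which share the differences between zones, the Pearson correlation of log2 levels between pairs of the 9 genes had a median of 0.63. It reached 0.94 for FOS with BTG2 and 0.92 for MYC with DUSP1, while the median with the other genes was 0.07 for JUN and 0.08 for GADD45G. Single libraries stood apart inside their groups. Border zone replicate 2 had the lowest border zone value for 8 of the 9 genes, where 35.8% of all tested genes were lowest in it, and RHOB was the exception. The summed heart muscle markers in that library were 283 RPKM against 196 and 166 RPKM in border zone replicates 1 and 3, and the summed macrophage and monocyte markers were 14.4 RPKM against 28.5 and 25.1 RPKM. Healthy replicate 3 had the highest healthy value for 6 of the 9 genes, where 30.4% of all tested genes were highest in it. Its summed macrophage and monocyte markers of 2.66 RPKM and heart muscle markers of 347 RPKM were the lowest of the healthy libraries. Border zone replicate 2 and healthy replicate 3 also had the most reads of their groups, 7005976 and 6531658.

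**Figure D3:**
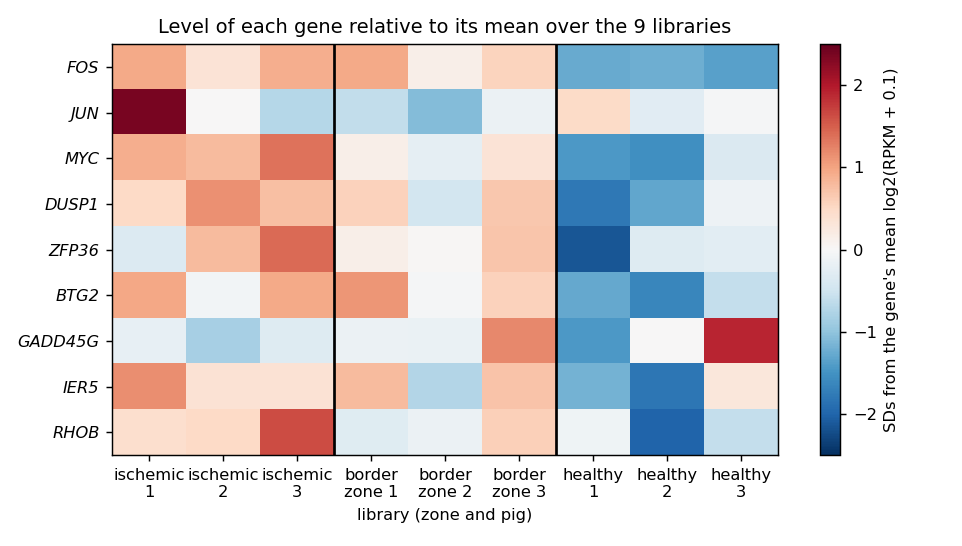
Each gene's log2(RPKM + 0.1) in each library (columns, in the order ischemic, border zone and healthy, pigs 1 to 3) as the number of SDs from its mean over the 9 libraries (colour). FOS is low in all healthy libraries at -1.36 to -1.22, JUN peaks in ischemic replicate 1 at 2.37, and GADD45G peaks in healthy replicate 3.

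Marker sums for macrophages, neutrophils, lymphocytes, endothelium and fibroblasts were higher in every ischemic and border zone library than in every healthy one. The margin between border zone and healthy was small for lymphocytes (3.74 against 3.69 RPKM), fibroblasts (12.9 against 12) and endothelium (11.8 against 10.5). For FOS, MYC and BTG2 too, every ischemic and border zone library lay above every healthy one. Among all tested positions that held for 28.4% in ischemic and 25.7% in border zone libraries, each zone taken alone. The summed level of 13 macrophage and monocyte markers was 33.0 to 48.1 RPKM in ischemic, 14.4 to 28.5 in border zone and 2.66 to 4.62 in healthy libraries. CD163, a scavenger receptor, was listed at 0 in every library, as were 1027 of the 4882 positions in all. The summed level of 7 neutrophil markers was 14.4 to 32.4 RPKM in ischemic, 5.89 to 12 in border zone and 0.193 to 0.517 in healthy libraries, where S100A8, S100A9, S100A12 and MMP9 were at 0. Endothelial markers summed to 18.2 to 37.3 RPKM in ischemic, 11.8 to 21.8 in border zone and 9.04 to 10.5 in healthy libraries, and fibroblast and matrix markers to 17.8 to 21.4, 12.9 to 15.9 and 8.97 to 12 RPKM in the same order. Lymphocyte markers summed to 5.32 to 8.17 RPKM in ischemic, 3.74 to 9.89 in border zone and 1.74 to 3.69 in healthy libraries, with the highest sum in border zone replicate 3. Smooth muscle and pericyte markers summed to 25.2 to 42.1 RPKM in ischemic, 43.3 to 55.6 in border zone and 44.2 to 51.2 in healthy libraries, and 2 erythroid markers to 21.5 to 68.9, 2.88 to 11.9 and 6.19 to 17.5 RPKM in the same order. The lymphocyte sums thus followed no order of ischemic over border zone. In ischemic against healthy 7 of 9 tested macrophage and monocyte, 3 of 5 neutrophil and 1 of 4 lymphocyte markers rose. So did 4 of 6 endothelial and 4 of 7 fibroblast and matrix markers. In border zone against healthy the counts were 5, 2, 1, 0 and 2 in that order. The erythroid sum was above both other groups in all ischemic libraries, and 1 of the 2 markers passed against healthy. Of 4 tested smooth muscle and pericyte markers 1 rose and 1 fell in ischemic against healthy. The part of these cell types in the levels of the 9 genes was not tested. In whole tissue, more cells of a type and more transcription per cell cannot be told apart.

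Genes with the pattern most like each profile were sought among 1979 other tested genes with a symbol, by Pearson correlation over the 9 libraries. These libraries share the differences between zones, so a high correlation can come from the step between zones alone. For FOS the 5 closest, all at 0.99, were CYTH4, an exchange factor of ARF GTPases, TLR4, the lipopolysaccharide receptor, IL1A, an interleukin 1, S100A12, a calgranulin of neutrophils, and PIK3AP1, an adaptor of phosphoinositide 3-kinase. TLR4 is 1 of 9 tested genes of the macrophage and monocyte marker list and S100A12 is 1 of 5 of the neutrophil list. IL1A averaged 11.5 ± 6.33 RPKM in ischemic, 9.23 ± 3.75 in border zone and 0.171 ± 0.0214 in healthy myocardium (SD, n = 3 each). Healthy means were 7.13 RPKM for FOS, 0.335 for CYTH4, 0.284 for TLR4, 0.198 for PIK3AP1 and 0 for S100A12. Whether FOS and these genes were transcribed in the same cells was not tested. For MYC the closest included KIT, the stem cell factor receptor, and AMCF-II, a pig CXC chemokine, at 0.98, then KLF6 at 0.97 and the heat shock cochaperone DNAJB1 at 0.96. DNAJB1 averaged 24.8 ± 1.72 RPKM in ischemic, 13.6 ± 4.40 in border zone and 7.88 ± 1.85 in healthy myocardium. That descent by zone follows from its choice by likeness to MYC. For the mean profile of the 9 genes the closest were COL5A1 at 0.98, STAT5B and RAB8A at 0.97, and KIT and ACLY at 0.96.

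The other immediate early regulators, kinases and partners were taken from lists of 117 further genes, of which 31 are in the table and 25 were tested. In ischemic against healthy myocardium 9 of the 25 rose and 1 fell, where 394 of 2014 tested genes rose and 193 fell. Of the 12 tested immediate early regulators 6 rose and 1 fell, with a median log2 fold change of 1.41. BTG1, a relative of BTG2, averaged 45.6 ± 19.8 RPKM in ischemic, 28.4 ± 8.36 in border zone and 7.83 ± 3.23 in healthy myocardium, a log2 fold change of 2.52 ± 0.45 (adjusted p = 0.00568). BTG3 had 1.54 ± 0.27 (adjusted p = 0.00573) at a low level of 1.59 RPKM in ischemic and 0.496 RPKM in healthy myocardium. BTG1, BTG2 and BTG3 therefore each rose in ischemic myocardium, BTG2 with the exceptions named above. SGK1, a kinase of salt and stress signalling, had 2.09 ± 0.42 (adjusted p = 0.0104), KLF6, a zinc finger factor, had 1.42 ± 0.30 (adjusted p = 0.0118, and 0.120 with quantile normalization) and ID2, an inhibitor of helix-loop-helix factors, had 2.39 ± 0.52 (adjusted p = 0.0136). The fall was that of the nuclear receptor NR4A3, at 2.78 ± 0.959 RPKM in ischemic, 5.42 ± 1.67 in border zone and 7.78 ± 2.26 in healthy myocardium (log2 fold change -1.45 ± 0.35, adjusted p = 0.0194). It was lost without ischemic replicate 3 (adjusted p = 0.0575) and without healthy replicates 1 (0.0553) and 2 (0.0679).

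Few relatives of AP-1 and MYC can be described. From the AP-1 list ATF4, a leucine zipper factor of the integrated stress response, was tested and rose in ischemic myocardium, with 1.31 ± 0.37 (adjusted p = 0.0335). Its adjusted p was 0.0978, 0.0547 and 0.0594 without ischemic replicates 1 to 3 and 0.0809 without healthy replicate 3, 0.235 with quantile normalization and 0.0649 in a fit on these groups alone. BATF was in the table but too low to test, and FOSB, JUNB, JUND and ATF3 were not analysed here. MXD3, which competes with MYC for MAX, had 0.72 ± 0.43 (adjusted p = 0.251). Of 6 tested MAP kinase pathway genes 2 rose, with a median log2 fold change of 0.31 over the 6, where 394 of all 2014 genes rose with a median of 0.23. RPS6KA1, the ERK-activated kinase RSK1, averaged 3.00 ± 1.68 RPKM in ischemic, 2.72 ± 1.12 in border zone and 0.247 ± 0.0337 in healthy myocardium (log2 fold change 2.97 ± 0.49, adjusted p = 0.00423). MAP2K1, the kinase MEK1 that activates ERK, had 0.81 ± 0.18 (adjusted p = 0.0151, and 0.0516 with median scaling and 0.0753 with quantile normalization).

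In border zone against healthy myocardium 7 of the 25 rose and 0 fell, where 123 of 2014 genes rose and 3 fell. The calls were RPS6KA1 (2.94 ± 0.49, adjusted p = 0.0145), ID2 (2.73 ± 0.52, adjusted p = 0.0259), the nuclear receptor NR4A2 (2.49 ± 0.54, adjusted p = 0.0375), BTG3, SGK1, BTG1 and MAP2K1. These were near the threshold, and the count was 0 without border zone replicate 1, border zone replicate 3 or healthy replicate 2, 1 without healthy replicate 1 or 3, 3 without ischemic replicate 1 or border zone replicate 2, and 4 without ischemic replicate 3. It was 9 by limma-voom on reads, 7 with a pseudocount of 0.01 RPKM and without ischemic replicate 2, and 6 with the position of highest mean. It was 4 with pig as a block and with the 2 RPKM filter, 3 with quantile normalization and with these groups alone, 2 with median scaling and with no filter, and 0 with a pseudocount of 1 RPKM. The border zone call of FOS held under each of these, with adjusted p of 0.0221, 0.0289 and 0.0247 without border zone replicate 1, border zone replicate 3 and healthy replicate 2.

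**Figure D4:**
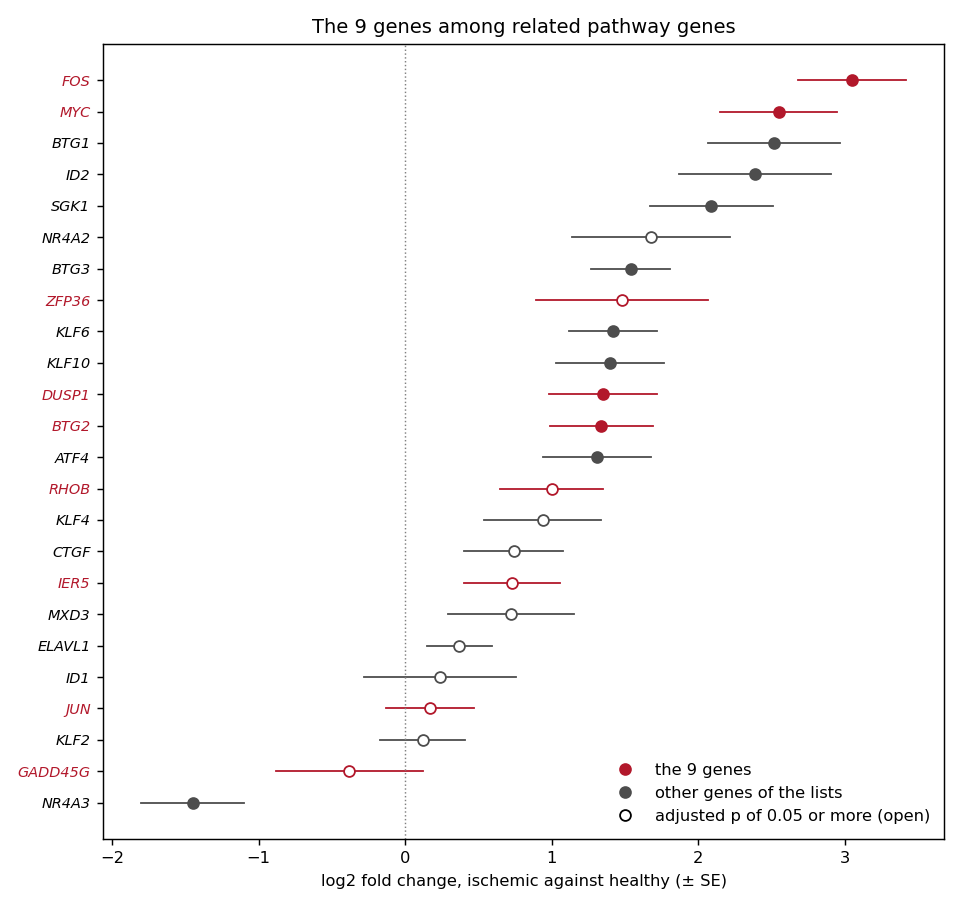
Log2 fold change with SE of ischemic against healthy myocardium (x axis) for the 9 genes (red) and the other tested genes of the AP-1, MYC, immediate early and mRNA decay lists (grey), ranked by value, with open points for an adjusted p of 0.05 or more. FOS at 3.05, MYC at 2.55 and BTG1 at 2.52 are the 3 highest of the genes drawn, and GADD45G at -0.38 lies near the lower end.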

How the data were processed

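The authors aligned GRO-seq reads to the pig build susScr3 with Bowtie, per the submitters' processing notes, and deposited RPKM for 4882 annotated positions in 9 libraries. The version, counting program, strand setting and treatment of duplicate and multiply matching reads are not given in these sources. Symbols came from the RefSeq accessions (4793 positions matched, names from Sscrofa11.1). Each RPKM times span and library total was whole within 0.01 reads for 100.0% of nonzero values, which gave the reads and library totals used here. Precision is limited by these reads and by 3 libraries a group.

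Tests used log2(RPKM + 0.1) in limma 3.58.1 (R 4.3.3), across all 2384 positions averaging 0.5 RPKM or more, with 3 group means, all 9 libraries, eBayes with trend and robust settings, and 2-sided Benjamini-Hochberg adjusted p under 0.05. Fold changes are on that log2(RPKM + 0.1) scale and understate changes of low genes. Replicate numbers are pigs, so pig as a block was the paired alternative; deviations from group means correlated at -0.04 to 0.18 within a pig and -0.16 to 0.08 between pigs. Other settings were pseudocounts of 0.01 and 1 RPKM, no filter or 2 RPKM, median and quantile scaling, the compared groups alone, limma-voom on reads, the position with the highest mean, and each library left out. The fit was also run on simulated reads with no differences between pigs. No result here rests on that run. All 9 genes are named, with at most 6 called genes a list in order of adjusted p. NR4A2 in the border zone is outside that rule and was named after its values were seen, as were the genes given only as not passing. A few genes are not reported here. Genes and lists were chosen with earlier results of these data known. Tables and figures used Python 3.11.15, pandas 2.3.3 and matplotlib 3.10.9.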

Additional observations from a re-analysis of the deposited data

How the results depend on the processing

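FOS in both comparisons with healthy myocardium and MYC in ischemic against healthy kept direction and call in each alternative run. Over all 9 genes, comparisons and alternatives, 472 values kept direction and side of the threshold, 13 lost a call, 7 gained one and 21 changed sign, all 21 of them uncalled values whose cause was not tested. The count of the 9 genes higher in ischemic against healthy myocardium was 2 with quantile normalization and 2 to 4 with 1 library left out. In border zone against healthy it was 3 with the replicate block of pig, 3 by limma-voom and 1 to 2 with 1 library left out. No other call of the 9 genes changed with the block than those named above. Without 1 library it was 0 to 0 for genes lower in each comparison and for genes higher in ischemic against border zone.

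Sign changes under scaling were JUN at -0.04 (median) and -0.47 (quantile) in ischemic against healthy and GADD45G at -0.17 (median) and -0.12 (limma-voom) in border zone against healthy. In ischemic against border zone quantile normalization gave FOS -0.38, JUN -0.0042, BTG2 -0.40, DUSP1 -0.33, IER5 -0.24, ZFP36 -0.17 and RHOB -0.0032. With 1 library left out the values ran from -0.14 to 0.39 for JUN and from -0.86 to 0.16 for GADD45G in ischemic against healthy, and from -0.40 to 0.62 for GADD45G in border zone against healthy. In ischemic against border zone they ran from -0.03 to 0.57 for FOS, -0.16 to 0.31 for BTG2, -0.05 to 0.31 for IER5 and -0.07 to 0.78 for ZFP36.

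Positions higher and lower in ischemic against healthy numbered 240 and 106 with the 2 RPKM filter, which leaves fewer positions, and 249 higher with quantile normalization. With 1 library left out they were 232 to 476 higher (264 without ischemic replicate 1, 232 and 280 without healthy replicates 2 and 3) and 130 to 222 lower (142, 130 and 132 without healthy replicates 1 to 3). Border zone against healthy, 138 higher and 5 lower, had 44, 71, 73, 74 and 257 higher with a pseudocount of 1 RPKM, the 2 RPKM filter, median scaling, quantile normalization and limma-voom. It had 3, 2, 11, 11, 13 and 39 lower with a pseudocount of 0.01 RPKM, no filter, median scaling, quantile normalization, the replicate block and limma-voom. With 1 library left out it had 35 to 164 higher (35 and 36 without border zone replicates 1 and 3, 62, 40 and 64 without healthy replicates 1 to 3) and 1 to 11 lower. Ischemic against border zone, 4 higher and 23 lower, had 1, 0, 1, 1, 0 and 27 higher with a pseudocount of 0.01 RPKM, no filter, median scaling, quantile normalization, these groups alone and limma-voom. It had 7, 3, 7, 4, 1 and 65 lower with a pseudocount of 1 RPKM, no filter, median scaling, quantile normalization, these groups alone and limma-voom, and 0 to 3 higher and 0 to 36 lower with 1 library left out. The fewest reads behind a value of the 9 genes were 26 in ischemic libraries, for JUN and GADD45G in replicate 3, and 20 in healthy libraries, for MYC in replicate 1.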
